A study of Mus musculus with 2 samples.

Results

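Insulin-like growth factor (IGF) signalling and hepatocyte growth factor were described here through 8 genes, chosen by name: the ligand genes Igf1 and Hgf, the receptor genes Igf1r and Igf2r, and the binding protein genes Igfbp4, Igfbp5, Igfbp6 and Igfbp7. These were 8 of the 31054 features in each of 2 single-cell RNA libraries. Cells enriched for hepatic stellate cells were taken from the livers of male mice after pronase and collagenase digestion and a Nycodenz density gradient, with 1 library per genotype. Both genotypes had received CCl4, a hepatotoxin that causes liver fibrosis, for 4 weeks, and also tamoxifen and diphtheria toxin. The control, p16-LRTD, carried a CreERT2 driven by the p16 promoter and a Rosa26 cassette in which loxP- and rox-flanked stops held back tdTomato and the diphtheria toxin receptor. The p16-Alb-LRTD mice carried in addition a DreERT2 driven by the albumin promoter, a design meant to confine the receptor to hepatocytes with high p16 so that the toxin eliminates them. The study names as a possible limit of the model that the loxP-flanked stop may not fully silence the receptor. Stellate, endothelial and Kupffer cells do not make albumin, so the cassette was not designed to act in them. Age and the number of mice pooled per library are not given in the sources used here. A single library stood for each genotype, so the genotype could not be tested, and each interval below covers counting error only. Levels and ratios count unique molecular identifiers (UMIs, 1 per captured transcript), and shares of cells count cells. Differences between mice, litters or dissections cannot be told apart from the genotype.

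IGF-1 is a secreted hormone made mainly by the liver under growth hormone, and it signals through the tyrosine kinase receptor encoded by Igf1r. The receptor encoded by Igf2r binds IGF-2 and mannose 6-phosphate-tagged proteins and carries them to lysosomes. IGF-binding proteins hold IGFs in the extracellular space and thereby limit or prolong their action. Hepatocyte growth factor, the ligand of the Met receptor on hepatocytes, is a classical product of stellate cells and supports hepatocyte growth after injury.

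The libraries held 11149 barcodes in p16-LRTD and 8806 in p16-Alb-LRTD, of which 9004 and 7416 met the limits on gene number, UMIs and mitochondrial share, with medians of 17177 and 18273 UMIs. The 2 libraries shared 95 barcode sequences. Cells were classed by their UMIs per 10000 of a few genes: Lrat, Ecm1, Reln and Dcn for stellate cells (at least 15), Kdr, Stab2 and Ptprb for endothelial cells (at least 8), and Clec4f, Cd5l, Vsig4 and Csf1r for Kupffer cells, the resident macrophages of the liver (at least 8). Stellate cells numbered 7973 in p16-LRTD and 6671 in p16-Alb-LRTD, endothelial cells 419 and 280, and Kupffer cells 275 and 177. Barcodes that met more than 1 rule, 264 and 225, were left out as possible doublets, and no doublet caller was run. Between 3 and 21 kept barcodes per class and library lay within 20% of a threshold. Markers that the rules did not use fitted the class names: all 8 stellate, 8 endothelial and 7 Kupffer markers reached 5 CPM (the UMIs of a gene per 1000000 UMIs of its class) in their own class in both libraries. The summed level of the stellate markers was 9125 and 8137 CPM in stellate cells, against 179 and 176 CPM in endothelial cells and 125 and 110 CPM in Kupffer cells. Cdkn2a, the gene that encodes p16, though not p16 alone, was at 6.88 CPM in stellate cells of p16-LRTD and 4.96 CPM in those of p16-Alb-LRTD. It was at 23.4 and 13.9 CPM in endothelial cells (1.68-fold lower) and at 34.6 and 28.6 CPM in Kupffer cells.

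Each class had its own pattern of the 8 genes, and in both libraries. Igf1 was highest in Kupffer cells, at 851 CPM in p16-LRTD (828 to 875, 95% exact Poisson interval) and at 666 CPM (642 to 690) with hepatocyte elimination, in p16-Alb-LRTD. Stellate cells followed with 27.6 CPM (26.8 to 28.5) and 14.5 CPM (13.8 to 15.2), and endothelial cells had 9.54 CPM (7.23 to 12.4) and 13.4 CPM (10.0 to 17.5). The order of the last pair held in p16-LRTD, whereas in p16-Alb-LRTD their intervals overlapped. Hgf was highest in stellate cells, at 952 CPM (947 to 957) and 1296 CPM (1290 to 1303), followed by endothelial cells at 168 and 261 CPM and by Kupffer cells at 96.4 and 81.3 CPM. The intervals of Hgf did not overlap between any pair of classes within a library.

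**Figure D1:**
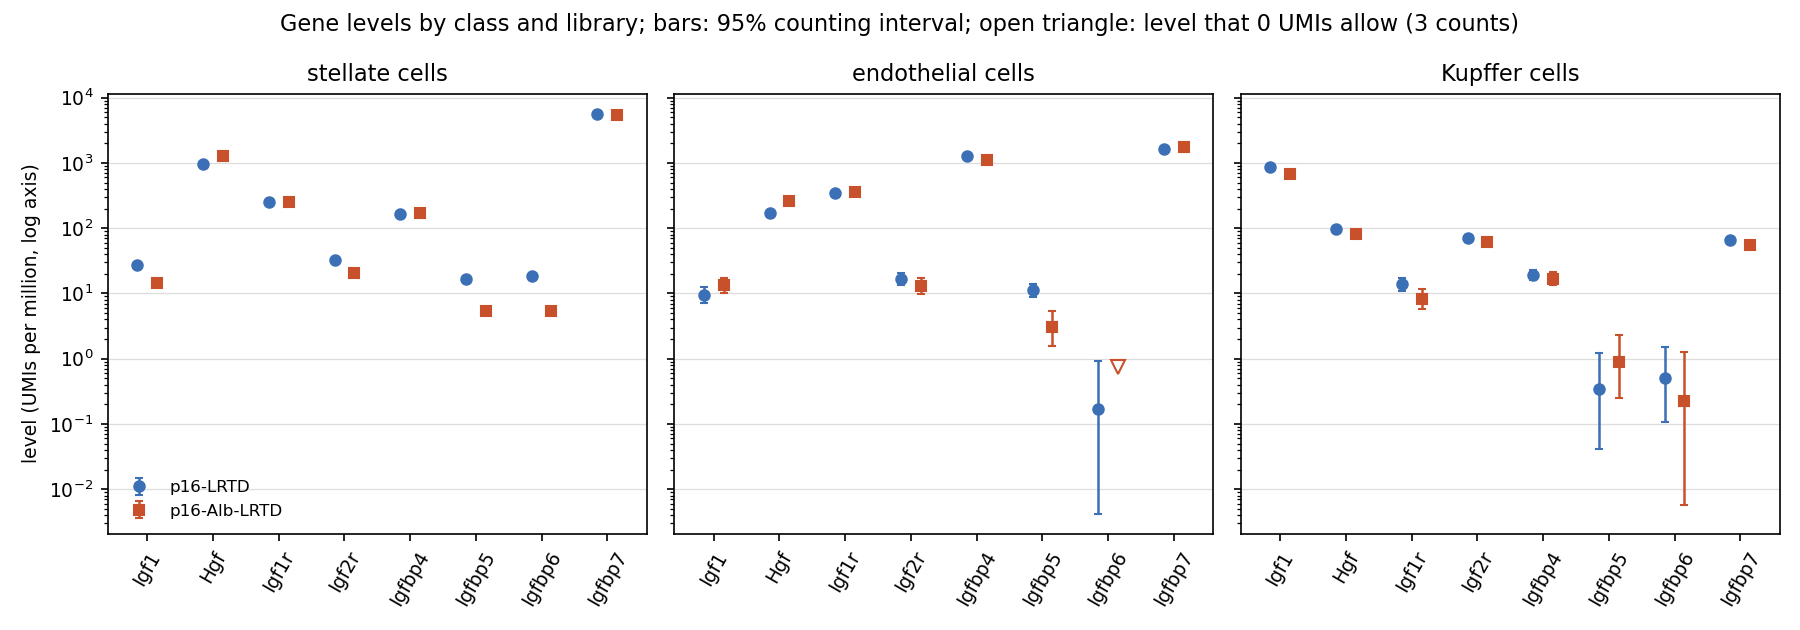
Level of each of the 8 genes (y axes, CPM, log scale) in stellate, endothelial and Kupffer cells of the p16-LRTD and the p16-Alb-LRTD library; points are class sums, bars 95% exact Poisson intervals of counting error, and the open triangle the level that 0 UMIs allow. Igf1 stands highest in Kupffer cells (851 and 666 CPM), Hgf in stellate cells (952 and 1296 CPM) and Igfbp4 in endothelial cells (1260 and 1096 CPM).

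The receptors were distributed differently. Igf1r was at 349 CPM (334 to 364) and 364 CPM (345 to 383) in endothelial cells, at 251 and 253 CPM in stellate cells, and at 13.9 and 8.33 CPM in Kupffer cells. Igf2r showed the other order, with Kupffer cells at 71.7 and 61.9 CPM, stellate cells at 32.8 and 20.7 CPM and endothelial cells at 16.7 CPM (13.6 to 20.4) and 13.2 CPM (9.82 to 17.2). Neighbouring classes in these orders had intervals that did not overlap in either library.

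Among the binding proteins, Igfbp4 was highest in endothelial cells (1260 and 1096 CPM), lower in stellate cells (163 and 168 CPM) and lowest in Kupffer cells (19.2 and 16.9 CPM). Igfbp7, which binds insulin and IGFs weakly and is found in vascular matrix, was at 5698 and 5473 CPM in stellate cells, 1641 and 1732 CPM in endothelial cells and 65.0 and 55.0 CPM in Kupffer cells. Igfbp5, a binding protein of the extracellular matrix, was at 16.9 and 5.30 CPM in stellate cells and at 11.2 CPM (8.69 to 14.2) and 3.04 CPM (1.57 to 5.30) in endothelial cells, so that both classes lay close together in the p16-Alb-LRTD library. Igfbp6, which prefers IGF-2 over IGF-1, was at 18.4 and 5.30 CPM in stellate cells, with 1 and 0 UMIs in endothelial cells and 3 and 1 UMIs in Kupffer cells. For the 0 UMIs of Igfbp6 in the endothelial cells of p16-Alb-LRTD, a level of up to 0.759 CPM is allowed (3 counts).

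Free RNA in droplets gives each class a trace of the genes of the most frequent one, so the levels were set beside those of stellate markers. The 8 stellate markers reached, in endothelial cells, a median of 1.29% of their stellate level in p16-LRTD (range 0.955% to 4.36%) and 1.38% in p16-Alb-LRTD (0.978% to 5.47%). Hgf in endothelial cells stood at 17.7% and 20.1% of its stellate level, above these ranges, and at 10.1% and 6.27% in Kupffer cells, where the markers ranged from 0.864% to 3.60% and from 0.726% to 1.96%. Igfbp7 in Kupffer cells was at 1.14% and 1.0% of its stellate level, within the range of the markers, and was read as background. Igf1 in stellate cells was at 3.25% and 2.18% of its Kupffer level, inside the wide ranges of the 7 Kupffer markers there (0.113% to 4.94% and 0.0713% to 5.99%) but above their medians of 0.223% and 0.125%. Igf1 in endothelial cells was at 1.12% and 2.01% of its Kupffer level, also within the range of the Kupffer markers (0.173% to 4.98% and 0.169% to 6.93%), so neither level was distinguished from background by this measure.

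In stellate cells, 4 of the 8 genes were at least 1.5-fold lower in p16-Alb-LRTD than in p16-LRTD and 0 were at least 1.5-fold higher. Across the 10215 genes with a mean of at least 5 CPM, 3.25% were that much lower and 3.00% that much higher. The 4 genes were Igf1, Igf2r, Igfbp5 and Igfbp6. With equal weights for 3 classes of collagen expression, described further below, 1 gene (Igfbp5) was past 1.5-fold, Igf2r and Igfbp6 were each at -0.52, and Igf1 turned to 0.18. The median log2 ratio (p16-Alb-LRTD over p16-LRTD) was -0.36 over the 8 genes and -0.05 over all 10215, whose 5th and 95th percentiles were -0.48 and 0.42. The 8 were chosen with earlier results of these data known, so this count describes them and was not tested.

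Igf1 in stellate cells had 4025 UMIs (27.6 CPM) in p16-LRTD and 1833 UMIs (14.5 CPM) in p16-Alb-LRTD, which was 1.91-fold lower (log2 ratio -0.93, 95% exact interval -1.01 to -0.85). The direction of Igf1 was reversed under equal collagen weights (0.18). Hgf had 138608 and 164009 UMIs (952 and 1296 CPM) and was 1.36-fold higher (log2 ratio 0.45, 0.44 to 0.46), below the 1.5-fold limit. Over the whole class, the 2 ligand genes thus differed between the libraries in opposite directions.

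The receptor Igf1r stood at 251 CPM for p16-LRTD against 253 CPM for p16-Alb-LRTD (log2 ratio 0.01, -0.01 to 0.03), close together at a depth of over 30000 UMIs in each library, with 36549 and 31961. Igf2r was at 32.8 and 20.7 CPM (4780 and 2614 UMIs), 1.59-fold lower (log2 ratio -0.67, -0.74 to -0.60). The Igf2r gene shares 28354 bases with Airn, a noncoding RNA transcribed from the opposite strand. Airn itself was at 202 and 122 CPM in stellate cells (log2 ratio -0.73), at 18.8 and 12.6 CPM in endothelial cells and at 129 and 124 CPM in Kupffer cells. The shared stretch lies at the start of Igf2r and not at its 3' end, and the libraries were of a 3' type. Whether the counting used strand is not given in the sources used here. The part of Airn reads in the Igf2r count was not tested.

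Igfbp4 was at 163 and 168 CPM (log2 ratio 0.04, 0.01 to 0.07) and Igfbp7 at 5698 and 5473 CPM (-0.06, -0.06 to -0.05). Both ratios lay within the middle 90% of all genes. Igfbp5 had 2458 UMIs (16.9 CPM) in p16-LRTD and 670 UMIs (5.30 CPM) in p16-Alb-LRTD, 3.19-fold lower (log2 ratio -1.67, -1.80 to -1.55). Igfbp6 had 2674 UMIs (18.4 CPM) and 671 UMIs (5.30 CPM), 3.46-fold lower (log2 ratio -1.79, -1.92 to -1.67). Its log2 ratio was -0.80 without the barcode limits and -0.96 without the upper limits on genes and UMIs alone. These were the largest ratios among the 8 genes in this class.

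**Figure D2:**
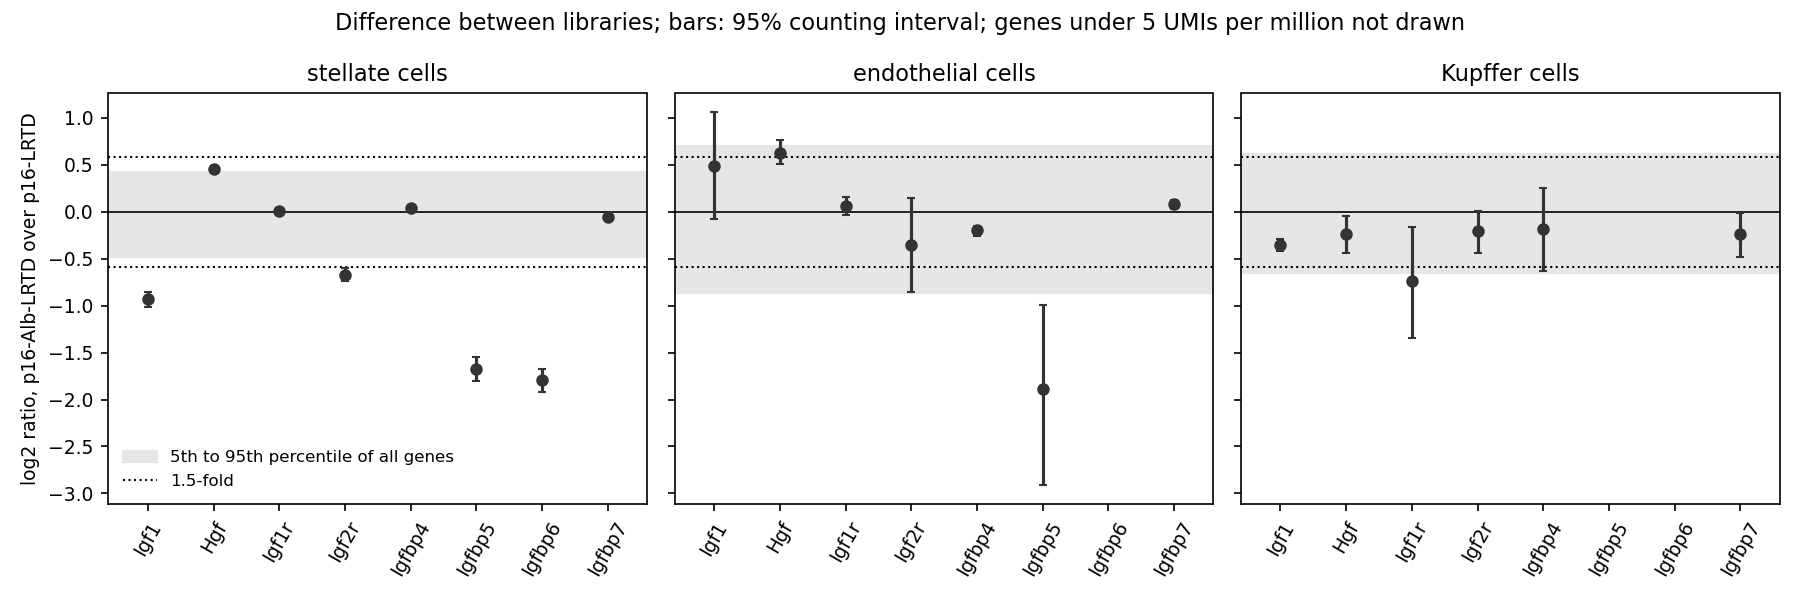
Log2 ratio of p16-Alb-LRTD over p16-LRTD (y axis) for the genes with at least 5 CPM in each cell class; points are ratios of class sums, bars 95% exact intervals of counting error, dotted lines 1.5-fold either way and the grey band the 5th to 95th percentile of all genes. In stellate cells Igf1, Igf2r, Igfbp5 and Igfbp6 lie beyond the lower line, while Hgf at 0.45 lies short of the upper one.

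The stretch of 250 bases before the start site is shown for the 3 genes that the stellate results turn on: Hgf, higher in p16-Alb-LRTD, and Igfbp5 and Igfbp6, with the lowest ratios. The sequences are from RefSeq (GRCm38.p6), written 5′ to 3′ on the strand of the gene, with matches to the searched motifs in capitals. Hgf lies at chr5:16553495-16620152 (plus strand), Igfbp5 at chr1:72857932-72874884 (minus strand) and Igfbp6 at chr15:102144362-102149511 (plus strand) in the GENCODE annotation of GRCm38. The stretches shown are chr5:16553245-16553494, chr1:72874866-72875115 and chr15:102143936-102144185. RefSeq and GENCODE place the starts of Igfbp5 and Igfbp6 at different bases, and the Igfbp5 stretch reaches into the GENCODE gene. RefSeq lists 2 promoters for Hgf, of which the first is shown.
Hgf: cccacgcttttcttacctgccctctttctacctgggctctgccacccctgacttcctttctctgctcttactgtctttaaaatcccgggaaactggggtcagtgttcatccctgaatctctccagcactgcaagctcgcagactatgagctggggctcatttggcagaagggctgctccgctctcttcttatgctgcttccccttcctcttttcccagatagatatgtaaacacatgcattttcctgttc
Igfbp5: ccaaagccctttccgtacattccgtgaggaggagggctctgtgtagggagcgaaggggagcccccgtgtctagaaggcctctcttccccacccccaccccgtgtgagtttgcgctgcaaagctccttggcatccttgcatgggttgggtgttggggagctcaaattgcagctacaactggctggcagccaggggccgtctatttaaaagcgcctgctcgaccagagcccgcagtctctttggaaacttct
Igfbp6: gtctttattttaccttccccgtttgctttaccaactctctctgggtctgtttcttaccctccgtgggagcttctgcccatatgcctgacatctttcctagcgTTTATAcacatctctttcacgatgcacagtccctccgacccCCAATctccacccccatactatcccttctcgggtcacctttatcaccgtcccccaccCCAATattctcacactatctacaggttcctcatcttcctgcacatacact
The motifs searched on both strands were the TATA box (TATAAA), the CCAAT box (CCAAT), the GC box (GGGCGG), a STAT5 motif (TTCNNNGAA) and an AP-1 motif (TGANTCA). They were present in 12.4%, 33.8%, 32.7%, 7.02% and 6.75% of the 32851 promoter stretches of the same length. Igfbp6 held CCAAT at 107 to 103 and at 50 to 46 bases before its start, and a TATA box on the opposite strand at 148 to 143 bases. Those matches did not overlap. Hgf and Igfbp5 held none of the 5 motifs, which says only that these letters are absent from the stretch. Among the others, Igfbp4 held TATAAA at 28 to 23 bases before its start, Igf1 held the AP-1 motif at 37 to 31 bases and CCAAT on the opposite strand at 142 to 138 bases, and Igf1r, Igf2r and Igfbp7 held 2, 3 and 4 GC boxes. The GC content of the 3 stretches shown was 50.8%, 58.8% and 49.6%, beside a median of 52.4% over all promoters.

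Other measures differed between the stellate cells of the libraries at the same time. The 3 collagen genes Col1a1, Col1a2 and Col3a1 summed to 8533 CPM for p16-LRTD against 3006 CPM for p16-Alb-LRTD, and 6 proliferation genes to 114 and 29.8 CPM. The 10 dissociation stress genes, immediate early and heat shock genes, summed to 5660 and 8883 CPM, and all 10 were higher in p16-Alb-LRTD. The stress sum was also higher in endothelial cells (2298 and 4329 CPM) and Kupffer cells (2864 and 3855 CPM), and its part in the ratios of the 8 genes was not tested. The 10 hepatocyte markers summed to 123 and 110 CPM in stellate cells. Barcodes with at least 5 such UMIs per 10000 were 1.74% and 1.24% of stellate cells but held 71.6% and 60.2% of the Igfbp6 and 26.6% and 26.3% of the Igfbp5 UMIs. Without them Igfbp6 was at 5.32 and 2.14 CPM (log2 ratio -1.31), under the 5 CPM minimum on average, which left 3 genes past 1.5-fold. The 8 portal fibroblast and mesothelial markers summed to 333 and 252 CPM, 1 of them higher and 7 lower in p16-Alb-LRTD, and none was at 0.

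Igfbp6 was confined largely to a small set of cells that carried these fibroblast and mesothelial markers. Cells with at least 10 such UMIs per 10000 numbered 458 (5.74% of stellate cells) in p16-LRTD and 291 (4.36%) in p16-Alb-LRTD, and they held 96.2% and 96.3% of the Igfbp6 UMIs. They also held 53.2% and 48.3% of the Igf1 UMIs, 40.2% and 56.7% of Igfbp5, 32.2% and 22.2% of Igfbp4, 11.9% and 10.8% of Igf2r, and 3.96% and 2.39% of Hgf. In these cells C3, a complement gene made by fibroblasts among others, was at 1805 and 1743 CPM against 6.93 and 9.73 CPM in the remaining stellate cells. The mesothelial gene Upk3b was at 48.1 and 34.8 CPM against 0.192 and 0.207 CPM. Lrat, the stellate enzyme that esterifies retinol, was at 487 and 730 CPM against 1338 and 1530 CPM, lower in the cells with the markers but present.

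Within the cells with fibroblast markers, Igfbp6 was at 260 CPM (250 to 271) for p16-LRTD against 112 CPM (103 to 121) for p16-Alb-LRTD (log2 ratio -1.22). Igf1 was at 217 and 153 CPM there (-0.50) and Igfbp5 at 100 CPM (93.9 to 107) and 65.7 CPM (-0.61). Igfbp4 was at 774 and 816 CPM (0.08) and Hgf at 556 and 677 CPM (0.28). Among kept barcodes, both the share of such cells and the level of Igfbp6 within them were therefore lower in the p16-Alb-LRTD library. In barcodes left out by the limits that met the stellate rule alone, Igfbp6 went the other way, at 40.4 and 104 CPM. Without the cells with fibroblast markers, the remaining kept stellate cells had Igf1 at 13.9 and 7.84 CPM (-0.82) and Igf2r at 31.0 and 19.3 CPM (-0.68). Igfbp5 was at 10.8 and 2.40 CPM (-2.17) and Hgf at 981 and 1326 CPM (0.44). Igfbp4 was at 119 and 137 CPM (0.21), and Igfbp6 at 0.752 and 0.207 CPM, under the 5 CPM minimum. Igf1, Igf2r and Igfbp5 were thus past 1.5-fold without the marker-bearing cells as well.

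**Figure D3:**
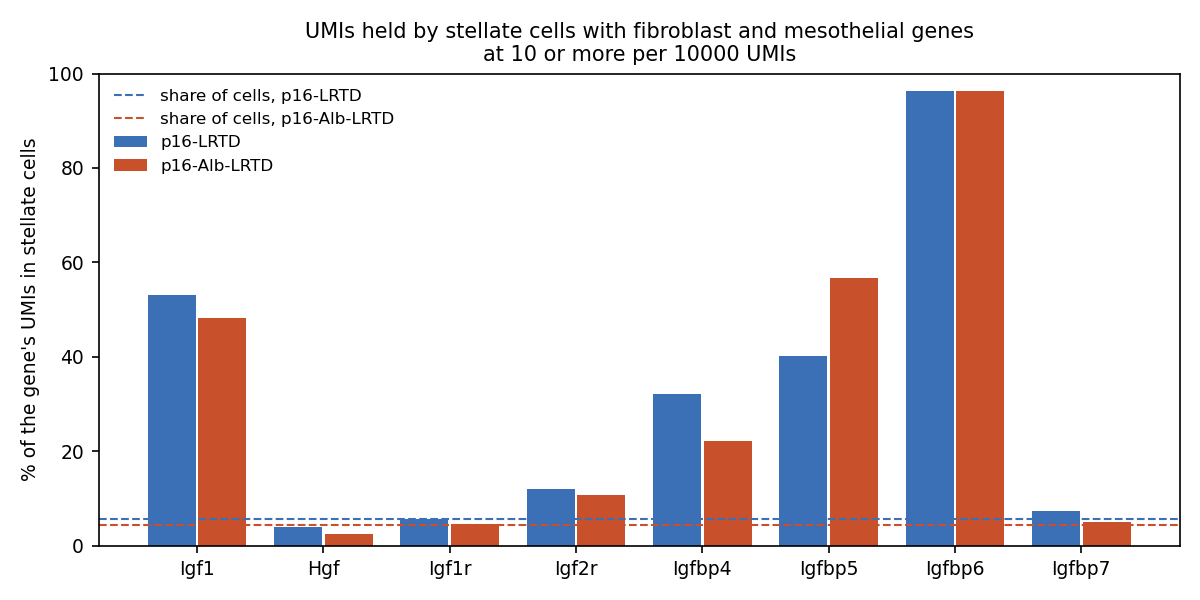
Share of the UMIs of each gene (y axis, percent) found in stellate cells with at least 10 portal fibroblast and mesothelial marker UMIs per 10000, for the p16-LRTD and the p16-Alb-LRTD library; dashed lines mark the share of stellate cells. Those cells were 5.74% and 4.36% of stellate cells and held 96.2% and 96.3% of Igfbp6, but 3.96% and 2.39% of Hgf.

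Dcn, a gene of the class rule that fibroblasts also express, let a few cells in by itself. In p16-LRTD 158 stellate cells (1.98%) and in p16-Alb-LRTD 70 (1.05%) stayed under 15 per 10000 for Lrat, Ecm1 and Reln. These cells held 89.4% and 93.3% of the Igfbp6 UMIs, 29.1% and 43.7% of Igfbp5 and 23.8% and 16.6% of Igf1. Their low Lrat, at 126 and 137 CPM, follows from this choice. Among stellate genes outside the rule, Pdgfrb was at 201 and 147 CPM, Hand2 at 136 and 134 CPM and Lhx2 at 93.5 and 56.3 CPM in these cells, and C3 was at 3882 and 4703 CPM. With Lrat, Ecm1 and Reln alone as the rule, Igf1 was at 21.6 and 12.3 CPM (log2 ratio -0.82) and Igfbp5 at 12.3 and 3.02 CPM (-2.02). Igfbp6 was at 2.0 and 0.361 CPM, below the minimum.

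Igfbp5 and Igfbp6 rested on few cells. In p16-LRTD the 3 cells with most Igfbp5 held 236 UMIs, 9.60% of the total, and in p16-Alb-LRTD they held 268 UMIs, 40.0%. For Igfbp6, the leading 3 cells held 13.1% and 26.8%, and the leading 10 cells 32.2% and 59.8%. For Hgf, by contrast, the leading 10 cells held 0.949% and 1.05%.

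To set detection apart from level, each cell was thinned to 5000 UMIs, which left 7956 and 6662 stellate cells. A UMI of Hgf was then found in 92.5% (95% exact binomial interval 91.9 to 93.0) and 95.1% (94.5 to 95.6) of stellate cells, and of Igfbp7 in 99.9% of cells in both libraries. Igf1 was detected in 7.13% (6.57 to 7.71) and 4.55% (4.06 to 5.08), against 15.1% and 9.94% before thinning. Igf2r was detected in 14.6% (13.8 to 15.4) and 9.16% (8.47 to 9.87), against 39.3% and 28.7% before thinning. Igfbp5 was detected in 3.00% (2.64 to 3.40) and 1.05% (0.820 to 1.33), and Igfbp6 in 1.53% (1.28 to 1.83) and 0.480% (0.329 to 0.677). For these 4 genes the shares were lower in p16-Alb-LRTD and the intervals did not overlap. The intervals take the cells of 1 library as independent draws, so they do not cover differences between mice and are no test of the genotype. Igf1r (66.5% and 66.2%) and Igfbp4 (44.3% and 44.9%) had overlapping intervals. For reference, Igfbp6 was found in 0 of 408 and 0 of 280 thinned endothelial cells, which allows a share of cells with a UMI of up to 0.735% and 1.07% (3 counts) and sets no limit on cells that express the gene. Before thinning, 0.239% of endothelial cells of p16-LRTD carried a UMI. The endothelial cells had median depths of 11707 and 12075 UMIs before thinning against 17104 and 18166 in stellate cells.

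Cells with a UMI of Igfbp6 often lacked Hgf. After thinning, Hgf was found in 36.9% of the 122 Igfbp6 cells of p16-LRTD and in 25.0% of the 32 of p16-Alb-LRTD, beside 92.5% and 95.1% of all stellate cells. Among the Igfbp5 cells, 83.7% of 239 and 80.0% of 70 carried Hgf. Igfbp5 and Igfbp6 were seen together in 29 cells (12.1% of Igfbp5 and 23.8% of Igfbp6 cells) and in 5 cells (7.14% and 15.6%). Igf1 was found in 31.1% and 25.0% of Igfbp6 cells and in 49 of 239 and 14 of 70 Igfbp5 cells, beside 7.13% and 4.55% of all stellate cells. Igfbp4 was found in 80.3% and 81.2% of Igfbp6 cells. These shares describe the cells of 1 library each.

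Stellate cells make collagen when activated, and the libraries differed in how many cells did so. Cells were divided into tertiles of the pooled cells by their UMIs of Col1a1, Col1a2 and Col3a1, with limits at 16.8 and 38 per 10000. A total of 1048 and 1218 cells lay within 10% of a limit. The highest tertile held 45.1% of the p16-LRTD and 19.3% of the p16-Alb-LRTD stellate cells, the middle one 26.2% and 41.8%, and the lowest one 28.7% and 38.8%. These tertiles are ranges of a measure, not cell types.

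Igf1 was found mostly in the highest tertile, which held 94.1% of its stellate UMIs in p16-LRTD and 76.9% in p16-Alb-LRTD. Its level there was 50.4 CPM (48.8 to 52.0) and 56.6 CPM (53.7 to 59.6), with a log2 ratio of 0.17 (0.08 to 0.26). In the middle tertile Igf1 was at 3.27 and 6.56 CPM, and in the lowest at 3.49 and 1.61 CPM. Igf1 was thus lower in p16-Alb-LRTD over the whole class and in the lowest tertile, but higher in the other tertiles. With equal weights for the tertiles its log2 ratio was 0.18.

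Hgf had the opposite gradient, highest where collagen was lowest. It was at 1087 and 1569 CPM in the lowest tertile (log2 ratio 0.53), at 983 and 1263 CPM in the middle one (0.36) and at 875 CPM (868 to 881) and 830 CPM (819 to 842) in the highest (-0.08). The higher Hgf level of the p16-Alb-LRTD library was therefore seen in the lowest and middle tertiles and not in the highest. With equal weights its log2 ratio was 0.31.

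Igf2r was lower in p16-Alb-LRTD in each tertile, at 29.6 and 18.3 CPM in the lowest, 29.8 and 18.9 CPM in the middle and 35.8 and 29.0 CPM in the highest. With equal weights its log2 ratio was -0.52, short of 1.5-fold. Igf1r was at 301 and 262 CPM, 268 and 250 CPM, and 220 and 240 CPM from the lowest to the highest tertile, so its near-equal class level held a lower value in 2 tertiles and a higher one in the highest. Igfbp4 stood at 148 and 129 CPM in the lowest tertile, 139 and 138 CPM in the middle one and 181 and 308 CPM in the highest (log2 ratio 0.76, 0.72 to 0.80). Igfbp7 was at 4829 and 5000 CPM, 5151 and 5468 CPM, and 6360 and 6415 CPM, higher with collagen in both libraries.

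In p16-LRTD the highest tertile held 98.7% of the Igfbp5 and 99.1% of the Igfbp6 UMIs. In p16-Alb-LRTD it held 44.5% of Igfbp5, with another 42.4% in the lowest tertile, and 85.7% of Igfbp6. Within the highest tertile Igfbp5 was at 32.3 and 12 CPM (log2 ratio -1.43) and Igfbp6 at 35.2 and 23.1 CPM (-0.61). The direction turned in the lowest tertile, where Igfbp5 was at 0.315 and 5.78 CPM (4.2), on 11 and 284 UMIs. Igfbp6 was there at 0.143 and 1.77 CPM (3.63), on 5 and 87 UMIs. A single stellate cell of p16-Alb-LRTD held 86 Igfbp6 UMIs, so this value may rest on 1 cell. In the middle tertile Igfbp5 was at 0.592 and 1.68 CPM (1.5) and Igfbp6 at 0.536 and 0.172 CPM (-1.64). In both of these tertiles the 2 genes were under the 5 CPM minimum on average. With equal weights the log2 ratios were -0.77 and -0.52, and Igfbp5 was then the only 1 of the 8 genes past 1.5-fold. The 3 leading Igfbp5 cells of p16-Alb-LRTD bear on these values, since they held 40.0% of its UMIs.

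A few stellate cells, from 0.555% to 2.08% per side and library, could be split by genes of lobular position. Igfbp3, counted on the periportal side, was at 1408 and 1213 CPM over all stellate cells, so few would be likely to lack that side. In p16-LRTD the pericentral and periportal sets had Igfbp6 at 125 and 129 CPM, against 18.4 CPM in the class. Hgf was at 598 and 662 CPM in them, against 952 CPM. The sets thus differed from the class in more than lobular genes. Cells with a UMI of Ngfr, Itgb3 or Igfbp3 but none of Adamtsl2, Rspo3 and Spon2, the periportal side, numbered 166 and 37. In them the direction was opposite to the class: Igfbp5 was at 30.2 and 408 CPM (log2 ratio 3.75), Igf1 at 42.4 and 114 CPM (1.43) and Igfbp6 at 129 and 254 CPM (0.98). The 37 cells held 271 Igfbp5 UMIs, 40.4% of those of p16-Alb-LRTD stellate cells. As the 3 leading cells of the class held 268 UMIs, this value may rest on a few cells. The Igfbp6 value of p16-Alb-LRTD rested on 169 UMIs, beside 180 in the 3 leading cells of the class. Its Igf1 value rested on 76 UMIs, and both may come from a few cells as well. Median depths of the periportal sets were 11349 and 13084 UMIs, against 17104 and 18166 in the class. Hgf was at 662 and 500 CPM there (-0.41), also opposite to the class. In the 54 and 56 cells of the reverse, pericentral side, Igfbp5 was at 45.5 and 14.4 CPM (-1.65), Igfbp6 at 125 and 36.1 CPM (-1.79), both in the direction of the class, and Igf1 at 156 and 130 CPM (-0.27, -0.64 to 0.10), within counting error.

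**Figure D4:**
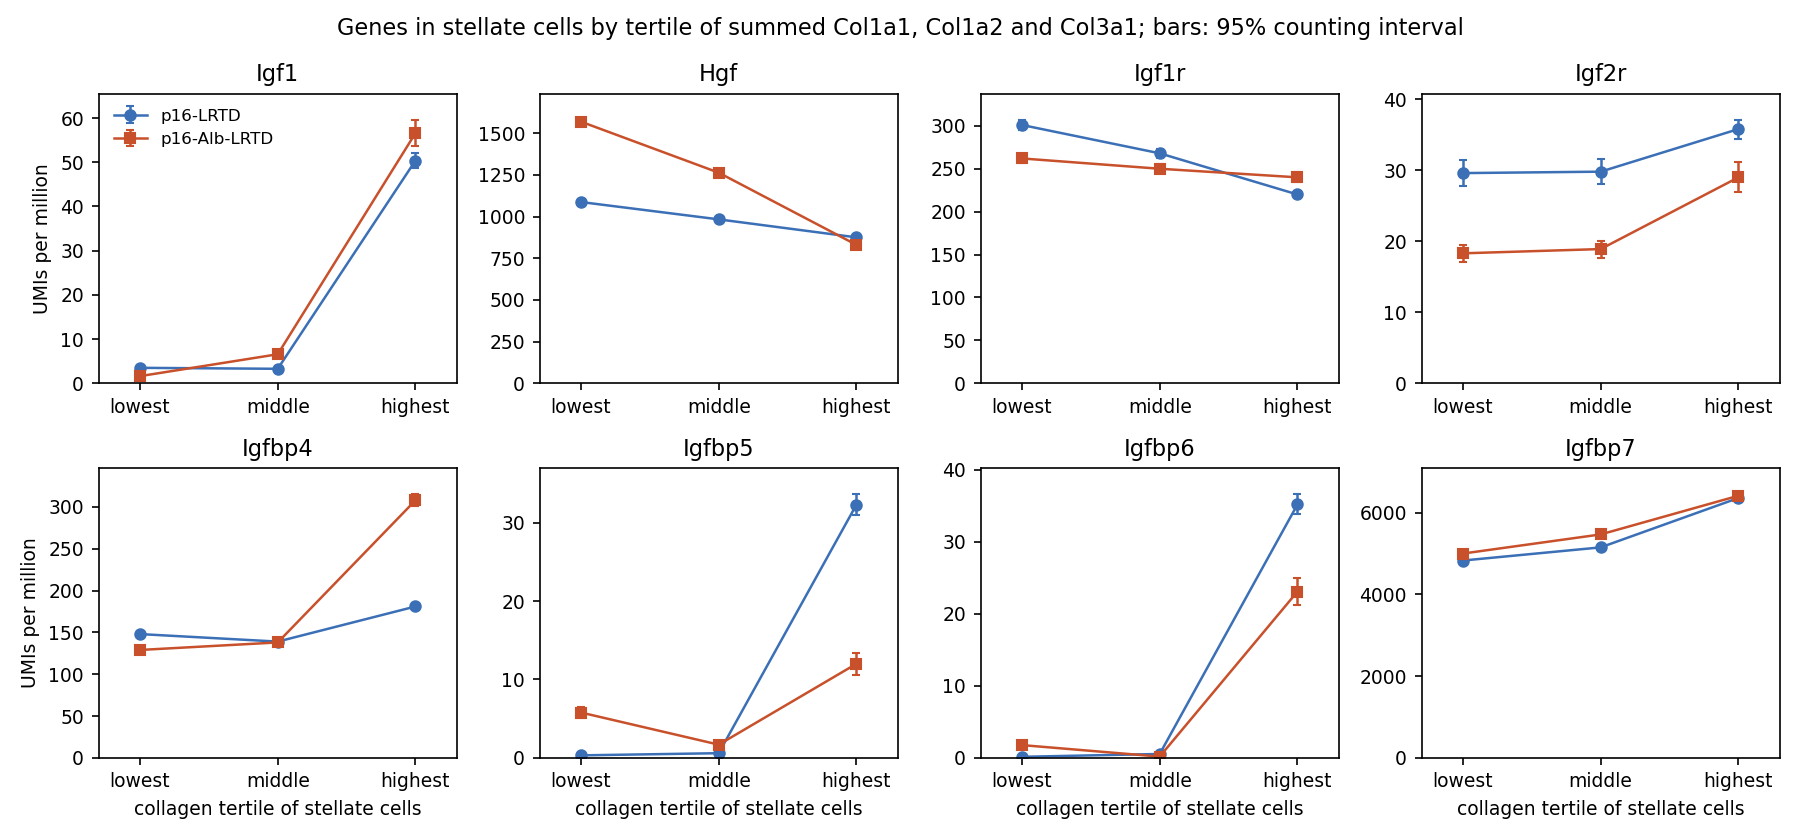
Level of each gene (y axes, CPM) in the lowest, middle and highest tertile of collagen UMIs among stellate cells of the p16-LRTD and the p16-Alb-LRTD library; bars are 95% exact Poisson intervals. Igf1 rests in the highest tertile (50.4 and 56.6 CPM), and Hgf is higher in p16-Alb-LRTD in the lowest tertile (1087 and 1569 CPM) but not in the highest (875 and 830 CPM).

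Dividing cells were few, with 304 (3.81%) and 126 (1.89%) stellate cells at 3 or more UMIs of the proliferation genes. In them Igfbp4 was at 102 and 308 CPM (log2 ratio 1.59) and Igfbp6 at 9.40 and 58.9 CPM (2.65), while Hgf was at 726 and 943 CPM (0.38). The Igfbp6 value of p16-Alb-LRTD rests on 175 UMIs and may come from a few cells, since the 3 leading cells of the class held 180 UMIs. Igf1 was higher in the dividing cells of p16-Alb-LRTD, at 25.3 and 35.0 CPM (0.47, 0.11 to 0.82), and Igf2r was at 43.9 and 39.7 CPM (-0.15, -0.46 to 0.16). In the remaining cells Igfbp4 was at 167 and 165 CPM, Igfbp6 at 18.9 and 4.02 CPM and Hgf at 965 and 1305 CPM. Igf1, at 27.8 and 14.0 CPM outside dividing cells, and Igf2r, at 32.2 and 20.2 CPM, stayed past 1.5-fold lower there.

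In endothelial cells, 7 of the 8 genes reached 5 CPM, of which 1 was at least 1.5-fold higher and 1 at least 1.5-fold lower in p16-Alb-LRTD. Of the 9819 genes at that level, 6.69% were higher and 13.0% lower by that much, and the median log2 ratios were 0.06 over the 7 genes and -0.10 over all. Hgf had 1004 UMIs (168 CPM, 158 to 179) in p16-LRTD and 1032 UMIs (261 CPM, 245 to 277) in p16-Alb-LRTD, 1.55-fold higher (log2 ratio 0.63, 0.51 to 0.76). After thinning it was found in 44.1% (39.2 to 49.1) and 57.1% (51.1 to 63.0) of 408 and 280 cells. As given above, Hgf in this class was 17.7% and 20.1% of its stellate level, and the part that free or doublet stellate RNA had in it was not tested.

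Igfbp5 had 67 and 12 UMIs in endothelial cells (11.2 and 3.04 CPM; log2 ratio -1.89, -2.91 to -0.99). In p16-LRTD 3 cells held 52 of the 67 UMIs, 77.6%, and the shares of thinned cells with a UMI, 2.21% (1.01 to 4.15) and 1.07% (0.222 to 3.1), had overlapping intervals. Igf1 had 57 and 53 UMIs (9.54 and 13.4 CPM; log2 ratio 0.49, -0.08 to 1.06), a difference within counting error. Its ratio passed 1.5-fold under 5 other settings (0.66 to 0.97) and turned to -0.44 when barcodes that met more than 1 class rule were kept. Markers of infiltrating macrophages summed to 22.9 and 115 CPM in endothelial cells, with 4 of 4 higher in p16-Alb-LRTD, 2 of them at 5 CPM in both libraries and 1 at 0 in p16-LRTD. Their part in the Igf1 level was not tested. Igf1r was at 349 and 364 CPM (0.06, -0.04 to 0.16) and Igf2r at 16.7 and 13.2 CPM (-0.35, -0.86 to 0.15), both within counting error. Igfbp4 was at 1260 CPM (1232 to 1289) and 1096 CPM (1064 to 1129), a log2 ratio of -0.20, and was found in 99.5% and 98.9% of thinned cells. Igfbp7 was at 1641 and 1732 CPM (0.08, 0.03 to 0.12).

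In Kupffer cells, 6 of the 8 genes reached 5 CPM, of which 0 were at least 1.5-fold higher and 1 at least 1.5-fold lower. The shares over 9493 genes were 5.34% higher and 6.45% lower, and the median log2 ratios were -0.24 over the 6 genes and -0.05 over all. Igf1 had 4964 UMIs (851 CPM) in p16-LRTD and 2955 UMIs (666 CPM) in p16-Alb-LRTD, with a log2 ratio of -0.35 (-0.42 to -0.29). It was found in 94.1% (90.6 to 96.6) and 88.6% (83.0 to 92.9) of thinned Kupffer cells, and in no other class did it exceed 7.13%. The 4 markers of infiltrating macrophages summed to 648 and 468 CPM in Kupffer cells, with 4 of 4 lower in p16-Alb-LRTD, and their part in the Igf1 difference was not tested. Igf1r, the gene past 1.5-fold, had 81 and 37 UMIs (13.9 and 8.33 CPM; log2 ratio -0.74, -1.34 to -0.16), and its thinned shares of 6.99% (4.26 to 10.7) and 2.84% (0.929 to 6.50) had overlapping intervals. Its level was 3.98% and 2.29% of that in endothelial cells, within the range of the 8 endothelial markers in Kupffer cells (0.111% to 36.7% and 0.0835% to 57.8%) and above their medians of 1.12% and 0.648%. It was 5.53% and 3.30% of its stellate level, above the ranges of the stellate markers given earlier. With the class thresholds doubled its log2 ratio was -0.36, and none of the 8 genes was then past 1.5-fold.

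The other 4 genes at 5 CPM in Kupffer cells had lower values in p16-Alb-LRTD by less than 1.5-fold. Hgf was at 96.4 CPM (88.6 to 105) and 81.3 CPM (73.1 to 90.2), a log2 ratio of -0.24 (-0.44 to -0.05), and was found in 26.8% and 28.4% of thinned cells, with overlapping intervals. Igf2r was at 71.7 and 61.9 CPM (-0.21, -0.44 to 0.01), and at 0.25 in cells of 10000 to 30000 UMIs, and Igfbp4 at 19.2 and 16.9 CPM (-0.18, -0.63 to 0.25). Igfbp7 was at 65.0 and 55.0 CPM (-0.24, -0.48 to -0.01), the level read above as background. Igfbp5 had 2 and 4 UMIs and Igfbp6 3 and 1, too few for a comparison.

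The surrounding pathway was followed through 38 further genes in 7 groups. In stellate cells 17 of them reached 5 CPM, of which 1 was at least 1.5-fold higher, 2 lower and 14 neither, with a median log2 ratio of -0.12; over all genes of the class, 3.00% were higher and 3.25% lower by that much. Irs2, an adaptor of the insulin and IGF-1 receptors, was the higher one, at 90.4 CPM (88.8 to 91.9) and 180 CPM (178 to 183), a log2 ratio of 1.0. Htra1, a secreted protease that can cleave IGF-binding proteins, was lower at 153 and 94.2 CPM (-0.70), and Plat, the tissue plasminogen activator, at 104 and 53.4 CPM (-0.96). Spint2, an inhibitor of proteases that activate HGF, was at 35.8 and 37.9 CPM (0.08).

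No other ligand was found at a level that could be compared: 0 of the 4 genes Igf2, Ins1, Ins2 and Mst1 reached 5 CPM in any class, and Igf2 had 5 and 6 UMIs in stellate cells. Of the 4 other receptors, Insr, the insulin receptor, was at 58.3 and 70.3 CPM in stellate cells (0.27) and Met, the receptor of HGF, at 0.646 and 0.530 CPM. Of the 5 other binding protein genes, Igfbp3, the main IGF carrier in serum, was the only one to reach 5 CPM. It was at 1408 and 1213 CPM in stellate cells (-0.22), 30.6 and 24.3 CPM in endothelial cells and 30.2 and 27.7 CPM in Kupffer cells. All 7 receptor adaptors reached the minimum in stellate cells, and 1 of them, Irs2, was past 1.5-fold. Pik3r1, the regulatory subunit of PI3-kinase, was at 391 and 577 CPM (0.56), Gab1 at 323 and 298 CPM, Shc1 at 63.9 and 57.8 CPM (-0.14) and Grb10, an inhibitor of both receptors, at 157 and 130 CPM (-0.27). The growth hormone axis, which governs Igf1 in hepatocytes, had 5 of 6 genes at the minimum and 0 past 1.5-fold, with the receptor Ghr at 326 and 322 CPM (-0.02), Jak2 at 71.9 and 61.7 CPM, Stat5b at 47.4 and 40.9 CPM (-0.22) and Socs2, its feedback inhibitor, at 88.9 and 93.4 CPM.

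**Figure D5:**
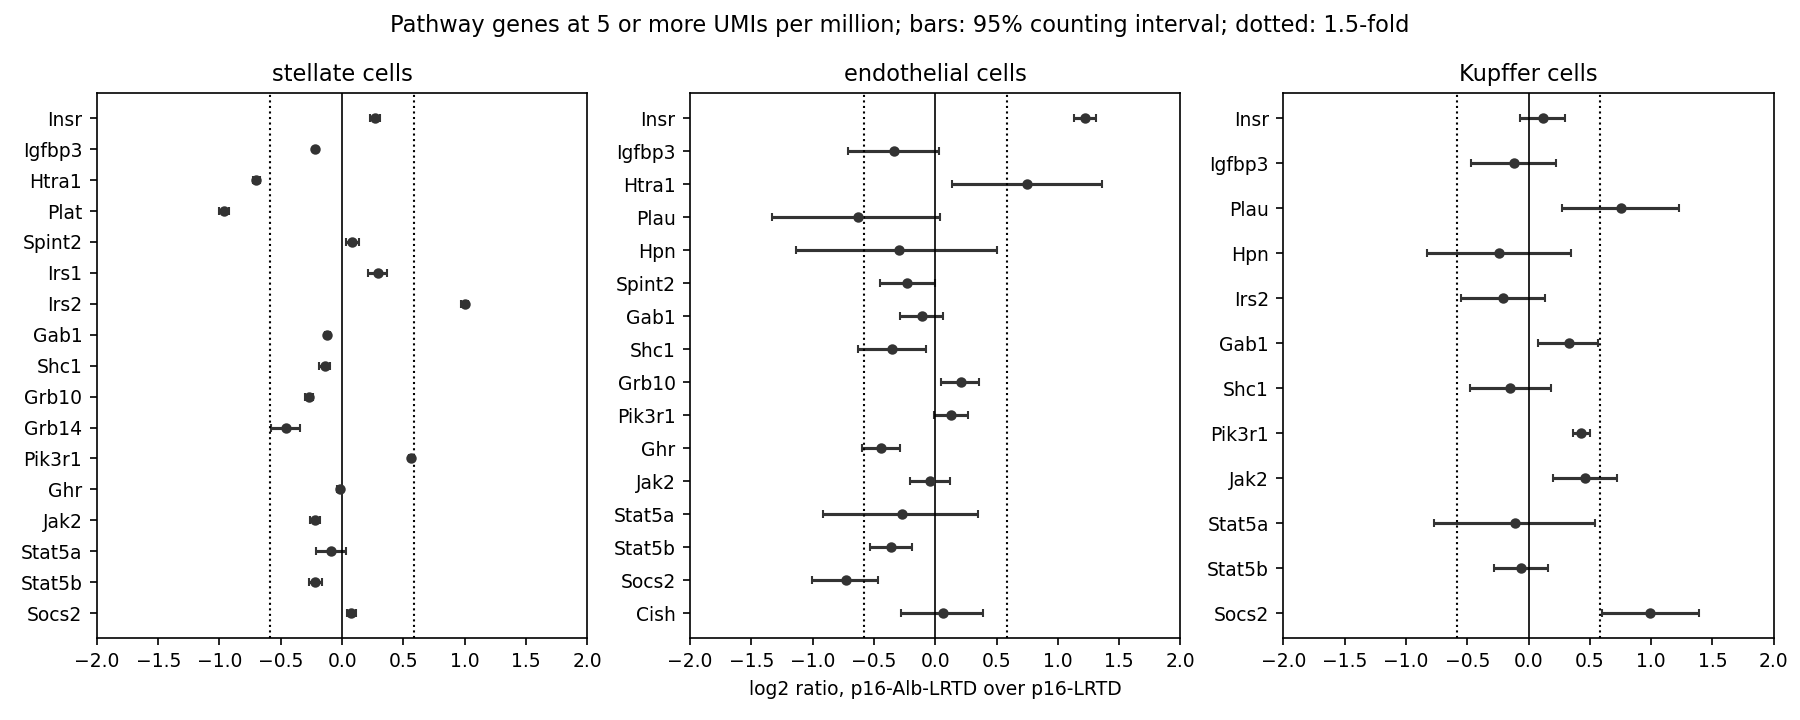
Log2 ratio of p16-Alb-LRTD over p16-LRTD (x axis) for the genes of the 7 pathway groups that reached 5 CPM in stellate, endothelial or Kupffer cells; bars are 95% exact intervals of counting error and dotted lines mark 1.5-fold. Irs2 lies past the upper line in stellate cells (1.0) and Insr in endothelial cells (1.22).

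In endothelial cells 16 of the 38 genes reached the minimum, with 2 higher and 2 lower (6.69% and 13.0% over all genes) and a median log2 ratio of -0.25. Insr was at 278 CPM (265 to 292) and 647 CPM (622 to 672), a log2 ratio of 1.22, and Htra1 at 7.53 and 12.6 CPM (0.75), the opposite direction to stellate cells. Socs2 was at 68.1 and 41.0 CPM (-0.73) and Plau, the urokinase that can activate HGF, at 10.5 and 6.83 CPM (-0.63, -1.33 to 0.04), on 63 and 27 UMIs and within counting error. In Kupffer cells 12 of the 38 reached the minimum, with 2 higher, 0 lower (5.34% and 6.45% over all genes) and a median of 0.03. Plau was at 11.7 and 19.6 CPM (0.75) and Socs2 at 15.8 and 31.3 CPM (0.99), the latter opposite in direction to endothelial cells. The differences between classes were not tested.

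Among 8921 genes compared, the 3 whose pattern over the 6 class sums came closest to each of the 8 were named by the root mean square difference of centred log2 levels. They were Rab7b (0.24), Pak1 and Il18bp for Igf1, Ehbp1 (0.15), Pygm and Spsb1 for Hgf, Nr2f1 (0.15), Epas1 and Chst15 for Igf1r, and Oxct1 (0.12), Erp29 and Plxnb2 for Igf2r. For Igfbp4 they were Gfod1 (0.13), Zeb1 and Vangl1, and for Igfbp7 Bok (0.14), Adamts9 and Zfpm2. For Igfbp5 they were Pdia5 (0.43), Trip6 and Plekhh3, the most distant of these sets. For Igfbp6 they were Vegfd (0.24), H1fx and Lox, with Vegfd at 22.2 and 5.27 CPM in stellate cells. The endothelial sums of Igfbp6 held 1 and 0 UMIs and its Kupffer sums 3 and 1, so its likeness rests largely on very low counts. The Kupffer sums of Igfbp5 held 2 and 4 UMIs. The 6 sums come from 2 libraries, so the likeness is mainly over the 3 classes.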

How the data were processed

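Per the submitters' processing notes, reads of 10x Genomics 3' v3.1 libraries were aligned to mm10 with Cell Ranger 7.0.1, and the authors deposited the resulting matrices of whole UMI counts, unnormalised. Whether intronic reads were counted is not given in the sources used here. From the deposited counts, barcodes with over 5% mitochondrial UMIs, under 2000 or over 7000 genes, or over 50000 UMIs were left out (2145 and 1390). UMIs were summed per class and library and scaled to CPM. Ratios carry exact conditional binomial intervals, levels exact Poisson intervals and shares Clopper-Pearson intervals, all at 95% and for counting error only. PCR and cell-to-cell variation are not covered. A gene was counted as past 1.5-fold where the mean of both libraries was at least 5 CPM. All 8 genes were reported, and pathway genes were named where past 1.5-fold in a class or at least 20 CPM on average in stellate cells. Other ligands and Met were named besides, after their values were seen. Rows were matched to GRCm38 coordinates by gene ID (9 of 9, Airn included). The members and lists were chosen with earlier results of these data known. The ratio and interval steps were tested on simulated data. Alternatives included scaling by TMM (edgeR 4.0.16 in R 4.3.3). Python 3.11.15, numpy 2.4.6, scipy 1.17.1 and pandas 2.3.3 were used.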

Additional observations from a re-analysis of the deposited data

Results flagged for a closer look

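In some genes the 2 libraries differed in opposite directions in different cell classes, with intervals on opposite sides of 0. Hgf had a log2 ratio (p16-Alb-LRTD over p16-LRTD) of 0.45 in stellate and 0.63 in endothelial cells but -0.24 in Kupffer cells. Igfbp4 had 0.04 in stellate and -0.20 in endothelial cells, but -0.02 in stellate cells without dividing cells. Igfbp7 had 0.08 in endothelial cells, -0.06 in stellate cells and -0.24 in Kupffer cells, where its level was read as background. Under equal collagen weights Igfbp7 was at 0.05 in stellate cells. With 1 library per genotype, the differences between classes were not tested.

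Signal was also found in barcodes outside the comparisons. In the 73 and 63 kept barcodes of no class, Igf1 was at 470 and 192 CPM (log2 ratio -1.29), Hgf at 31.9 and 14.9 CPM (-1.10), Igf1r at 29.3 and 57.9 CPM (0.98), Igf2r at 121 and 104 CPM (-0.22), Igfbp4 at 93.8 and 60.2 CPM (-0.64) and Igfbp7 at 140 and 65.7 CPM (-1.09). In the 2145 and 1390 barcodes left out by the limits, Igfbp6 was at 25.6 and 48.6 CPM (0.92), the opposite direction to kept stellate cells. The log2 ratios there were 0.01 for Igf1, 0.38 for Hgf, 0.05 for Igf1r, -0.18 for Igf2r, -0.13 for Igfbp4, -0.78 for Igfbp5 and -0.32 for Igfbp7. These differences were not tested.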

How the results depend on the processing

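No paired analysis was possible because the study had 1 library of each genotype. In stellate cells, 3 or 4 of the 8 genes were past 1.5-fold under the settings listed at the outset for this count. The alternatives on the fibroblast markers, on Lrat, Ecm1 and Reln alone and on the count under equal collagen weights were added after seeing the data. Equal collagen weights, listed at the outset for the log2 ratios but not for the count, left 1 gene (Igfbp5) and reversed Igf1 to 0.18. The log2 ratio of Igfbp6 ranged from -2.82 (cells of 10000 to 30000 UMIs) to -0.52 (equal collagen weights), and that of Hgf from 0.31 to 0.49. In endothelial cells the count of 2 became 1 (Hgf) in cells of 10000 to 30000 UMIs, and 3 under 4 settings that added Igf1 as higher. Without barcode limits Igf1 (0.97) and Hgf were the genes past 1.5-fold, and Igfbp5 was at -0.58. Among Kupffer cells the count of 1 became 2 (Igf1r and Igfbp7) with barcodes of more than 1 class kept, and 0 with doubled thresholds. Rescaling by TMM or by the median ratio moved log2 ratios by at most 0.07. With a minimum of 1 CPM, 3.64% of genes in stellate cells were higher and 6.08% lower, in endothelial cells 10.7% and 16.8%, and in Kupffer cells 8.41% and 11.7%. Counts under 100 UMIs, such as Igfbp5 in endothelial and Igf1r in Kupffer cells, limited the precision. The cause of these changes was not tested.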

Other observations

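Among the barcodes left out by the limits, 1061 in p16-LRTD and 637 in p16-Alb-LRTD met the stellate rule alone. In them Igfbp6 was at 40.4 and 104 CPM and Igfbp5 at 52.6 and 38.2 CPM. The mesothelial genes Msln, at 4.34 and 31.6 CPM, and Upk3b, at 14.5 and 37.3 CPM, were also higher there in p16-Alb-LRTD, while Alb, a hepatocyte gene, was at 839 and 187 CPM. Hgf was at 926 and 1160 CPM and Igf1 at 59.9 and 51.3 CPM in these barcodes, in the same directions as in kept stellate cells. In the kept barcodes of no class, where Igf1 was lower in p16-Alb-LRTD, Spp1, a gene that infiltrating macrophages express among others, was at 4503 and 3615 CPM. Arg1, another of the infiltrating macrophage markers, went the other way, at 2256 and 4406 CPM. The macrophage genes Csf1r, at 239 and 178 CPM, and Cd68, at 758 and 428 CPM, were lower in p16-Alb-LRTD. Their part in the Igf1 level was not tested.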
